A study of Mus musculus with 4 samples.

Results

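Cytosolic ribosomal protein genes encode the proteins that, with ribosomal RNA, make up the small (40S) and large (60S) subunits of the ribosome outside mitochondria. Members were all symbols formed of Rpl or Rps with a number and an optional a, x, y, l or l1, together with Rplp0, Rplp1, Rplp2 and Rpsa; symbols of pseudogenes (-ps) and of the S6 kinases were not taken. The rule found 85 of 45803 symbols, 52 of the Rpl type (60S) and 33 of the Rps type (40S). They were measured by RNA sequencing in epidermal keratinocytes, the main cells of the outer skin layer, of mice at postnatal day 0. The 2 cKO libraries had the genotype K14Cre,Mettl14F/F, with both Mettl14 alleles floxed, and the 2 control libraries had K14Cre,Mettl14F/+, with 1 floxed allele. All 4 libraries therefore carry a Cre driven by the keratin 14 promoter, which is active in basal keratinocytes, and the controls are heterozygous for the floxed allele. Mettl14 is a subunit of the enzyme that writes N6-methyladenosine on RNA. Nothing in the labels says that libraries came from separate animals, so the spread between them may be technical.

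Each ribosome holds 1 copy of nearly every ribosomal protein, and in growing cells the mRNAs of these proteins are among the most abundant. In mammals nearly all of them start with a cytosine followed by a run of pyrimidines, the terminal oligopyrimidine (TOP) motif, through which the mTORC1 kinase and the RNA-binding protein Larp1 set their translation and stability together. Basal keratinocytes of newborn skin divide and make large amounts of protein, and several ribosomal proteins have known skin phenotypes when mutated.

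The libraries hold facts that touch every value below. Summed FPKM (fragments scaled to the length of the transcript and the depth of the library) was 529298 and 631651 in cKO libraries 1 and 2 and 505075 and 611466 in control libraries 1 and 2. The steps between low values implied depths of 16840000 and 25635000 reads or fragments in cKO libraries 1 and 2, against 17345000 and 23415000 in control libraries 1 and 2, so the libraries numbered 2 were deeper in both genotypes. Mettl14 had 5.89 and 3.79 FPKM in cKO, against 7.0 and 6.4 FPKM in control. Both cKO values were lower, but the log2 difference of -0.42 ± 0.26 (SE, n = 2 each) was not past the threshold (limma adjusted p = 0.959), and the exons removed are not named in the labels. Over the 13817 genes that reached 1 FPKM in at least 2 libraries, 0 (0%) passed an adjusted p of 0.05 in limma's moderated test on log2(FPKM + 1), 454 (3.29%) were higher and 232 (1.68%) lower in cKO at an unadjusted p under 0.05. With 2 libraries a group, an exact permutation test of 1 value cannot go below p = 0.333. For this reason the values of each library, and the difference between cKO and control libraries of the same number, are given beside the fitted differences, and each pair of values stands for libraries 1 and 2 of a genotype.

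Ribosomal protein genes were among the most abundant of the table. Of the 85 members, 81 passed the filter on low values and 4 did not. The mean level over the 4 libraries ran from 37.2 FPKM for Rpl7l1 to 1954 FPKM for Rps18, a 52.5-fold range, with a median of 657 FPKM. As many as 25 members averaged over 1000 FPKM, 79 averaged over 100 FPKM, and 70 stood among the 200 genes with the highest mean. The 10 most abundant members, Rps18, Rps14, Rplp1, Rpl26, Rps27, Rpl32, Rpl37a, Rplp0, Rps4x and Rps2, held 25.7% of all member FPKM.

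The 4 members that did not pass the filter were near or at 0. Rpl10l, a copy of Rpl10 used in the testis, was listed at 0 in all 4 libraries, while Rpl10 had 831 and 1190 FPKM in cKO and 809 and 1088 FPKM in control. Rpl3l, the striated muscle form of Rpl3, had 0.06 FPKM in cKO 1 and was listed at 0 in the other libraries, while Rpl3 had 801 and 1109 FPKM in cKO and 801 and 1094 FPKM in control. Rpl39l, the testis form of Rpl39, had 0.37 and 0.53 FPKM in cKO and 0.43 and 0.42 FPKM in control. The tissue-restricted copies thus stood far below their partners in both genotypes. Rps12l1, annotated as a processed pseudogene, had 0.30 and 0.19 FPKM in cKO, against 0 and 0.43 FPKM in control.

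**Figure D1:**
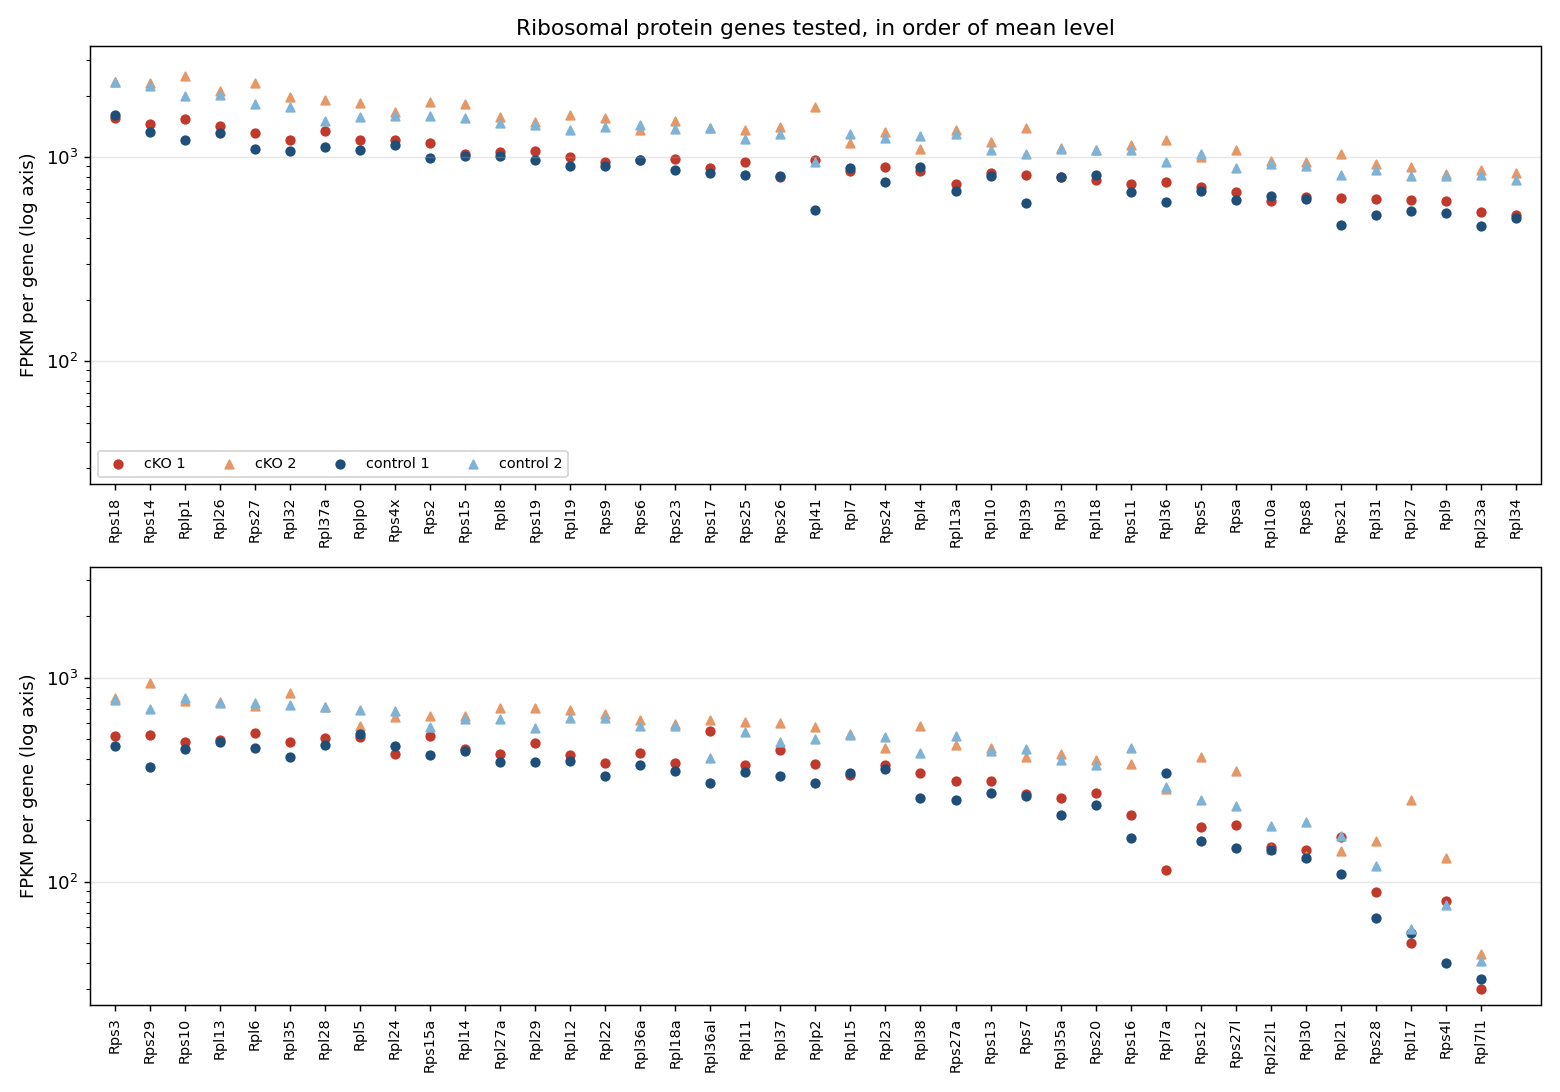
FPKM per gene (log axis) of the 81 tested ribosomal protein genes in the 4 libraries, ordered by mean level over the libraries and split over 2 rows. Triangles (libraries numbered 2) stand above circles (libraries numbered 1) for nearly every gene, and cKO and control of the same number lie close together except for a few genes such as Rpl41, Rpl36al, Rps4l, Rpl7a and Rpl17.

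Replicate number separated the libraries more than genotype did. In the library numbered 2 the members were higher than in the library numbered 1 by a median log2 difference of 0.62 in cKO and 0.64 in control, against 0.08 and 0.07 over all genes tested. This held in both genotypes for 77 of 81 members, beside 46.6% of all genes. The most abundant member, Rps18, shows it, with 1560 and 2318 FPKM in cKO and 1601 and 2337 FPKM in control. Rps14 had 1443 and 2305 FPKM in cKO and 1323 and 2229 FPKM in control. In both, each library numbered 2 was high in either genotype and the groups overlapped. The labels do not say what the numbers stand for.

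As a group, ribosomal protein genes took a slightly larger part of the values in cKO. They made up 9.80% and 12.6% of summed FPKM in cKO 1 and cKO 2 (11.2% ± 1.98, SD, n = 2), against 9.24% and 11.8% in control 1 and control 2 (10.5% ± 1.84). The groups overlapped, and the difference of 0.66 percentage points was within the spread between libraries (exact permutation test, two-sided, p = 0.667). Within number 1 the difference was 0.55 points and within number 2 it was 0.76 points. Its direction rests on single libraries, since it was -0.74 without cKO 2 and -0.64 without control 1, and 2.06 without cKO 1 and 1.96 without control 2. When each value was multiplied by transcript length, which approximates a share of reads, the shares were 4.10% and 6.15% in cKO and 3.76% and 5.72% in control. Mitochondrially encoded genes took 4.44% and 1.52% of FPKM in cKO and 8.33% and 2.36% in control, and without them the ribosomal protein genes held 10.3% and 12.8% in cKO and 10.1% and 12.1% in control. The RNA genes Rpph1 and Rmrp together took 12.9% and 18.8% of FPKM in cKO and 8.31% and 19.8% in control. The share without Rpph1 and Rmrp was not computed, and their part in the shares above was not tested. The ratio of 40S to 60S member FPKM was 0.77 and 0.791 in cKO and 0.777 and 0.809 in control, lower in cKO within both numbers with overlapping groups.

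**Figure D2:**
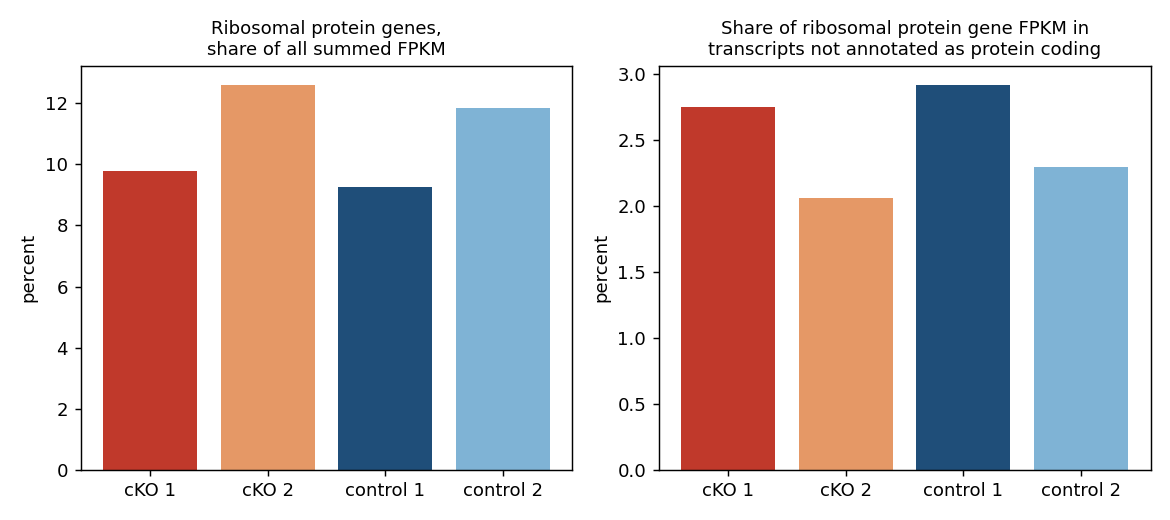
Left, percent of each library's summed FPKM held by the 85 ribosomal protein genes, with 1 bar per library. Right, percent of the FPKM in their annotated transcript rows that stood in types other than protein coding. In both panels the bars differ more between libraries 1 and 2 of a genotype than between genotypes: 9.80% and 12.6% in cKO beside 9.24% and 11.8% in control on the left.

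Gene by gene, none of the 81 tested members passed the threshold between genotypes, beside 0% of all genes. The smallest limma adjusted p among members was 0.959, and 0 members had an unadjusted p under 0.05, where 3.29% of all genes were higher and 1.68% lower. The standard error of a member's log2 difference was large, with a median of 0.44 and a range of 0.26 to 0.71. It reflects the spread within a genotype, where libraries 2 and 1 differed by a median log2 difference of 0.62 in cKO and 0.64 in control. The members' differences themselves were small and mostly positive, with a median log2 difference of 0.12, against -0.03 over all genes. In number 1 the members' median was 0.15 and in number 2 it was 0.10. Of the 81 members, 66 had a positive and 15 a negative difference. The members' median was 0.06 with equal column sums and 0.16 with median-ratio scaling. It was -0.18 without cKO 2 and -0.20 without control 1, against 0.42 without cKO 1 and 0.46 without control 2.

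Read within the replicate numbers, the members moved little and mostly in the same direction. In cKO, 56 of 81 members (69.1%) were higher within both numbers, beside 31.8% of all genes, and 7 (8.64%) were lower within both, beside 37.6%. A total of 53 members (65.4%) lay within 1.2-fold of control in both numbers, against 36.7% of all genes. Above 1.2-fold in both numbers stood 14 members (17.3%, against 10.9% of all genes), and 0 stood below it. These 14 were Rpl29, Rpl36, Rpl36al, Rpl37, Rpl38, Rpl39, Rpl41, Rplp1, Rps21, Rps27, Rps27l, Rps28, Rps29 and Rps4l, named after their values were seen. The 7 lower within both were Rpl4, Rpl5, Rpl7, Rpl7a, Rpl24, Rps6 and Rps18. The groups did not overlap for 4 members: both cKO libraries were above both control libraries for Rpl36al, Rpl41 and Rps4l (3.70% of members, against 16.2% of all genes) and below them for Rpl7a, against 16.6% of all genes.

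**Figure D3:**
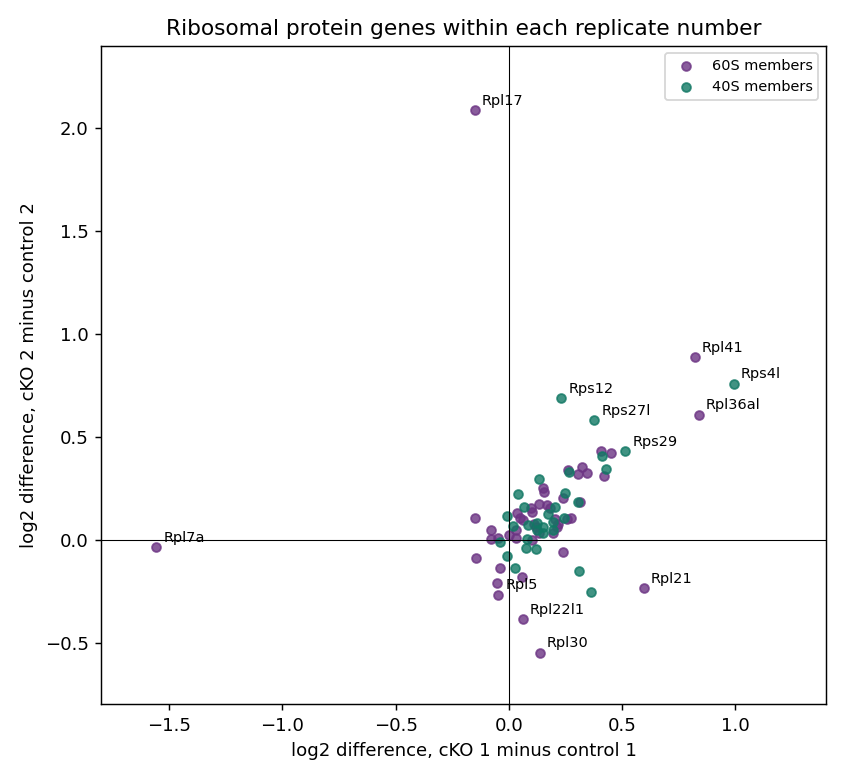
Log2 difference within replicate number 1 (cKO 1 minus control 1, horizontal axis) against that within number 2 (cKO 2 minus control 2, vertical axis) for the 81 tested members, coloured by ribosomal subunit. Most points lie in the upper right quadrant close to 0, Rpl41, Rps4l and Rpl36al stand out in both numbers, and Rpl17 and Rpl7a stand out in 1 number each.

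Members of the 2 subunits had the same small median difference. The 49 tested 60S members had a median log2 difference of 0.12 and the 32 tested 40S members also one of 0.12, with 32 and 24 members higher within both numbers. The 3 proteins of the P stalk, the 60S arm that recruits elongation factors, were all higher in cKO within both numbers, with a median of 0.25. Rplp0, its anchor, had 1210 and 1848 FPKM in cKO and 1085 and 1572 FPKM in control. Rplp1 had 1541 and 2485 FPKM in cKO and 1213 and 1984 FPKM in control. In both genes the groups overlapped, because control 2 exceeded cKO 1, and the log2 differences were 0.19 ± 0.50 and 0.33 ± 0.56 (SE, limma adjusted p = 0.973 and 0.963).

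The other abundant members, among them the 60S proteins Rpl26, Rpl32 and Rpl37a, were close between genotypes. Rpl26 had 1423 and 2113 FPKM in cKO and 1308 and 2021 FPKM in control. Rpl32 had 1208 and 1973 FPKM in cKO and 1073 and 1756 FPKM in control. Rpl37a had 1343 and 1892 FPKM in cKO and 1120 and 1497 FPKM in control. Each was a little higher in cKO within both numbers, with log2 differences of 0.09, 0.17 and 0.30, and in each the cKO 1 value was under the control 2 value. Rps2, a 40S protein near the mRNA entry, had 1167 and 1860 FPKM in cKO and 983 and 1591 FPKM in control, a log2 difference of 0.24 ± 0.52 (SE, limma adjusted p = 0.969).

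Rpl41 was 1 of the 3 members with both cKO libraries above both control libraries. It encodes the smallest protein of the ribosome, which is rich in arginine and lysine and lies at the contact between the subunits. The gene lies on chromosome 10 (chr10:128548114-128549305, GRCm38, minus strand), and its main transcript of 437 nt holds a coding sequence of only 78 nt (17.8%). The coding sequence is shown because of its size, running from the start to the stop codon, from GENCODE M21 (GRCm38):

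Rpl41: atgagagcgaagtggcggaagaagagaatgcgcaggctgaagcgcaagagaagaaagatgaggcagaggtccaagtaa

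Rpl41 had 969 and 1752 FPKM in cKO, against 548 and 947 FPKM in control. Both cKO libraries were above both control libraries, cKO 1 only narrowly above control 2. The log2 difference was 0.85 ± 0.52 (SE, limma adjusted p = 0.959), with 0.82 within number 1 and 0.89 within number 2. It ran from 0.43 without cKO 2 to 1.28 without cKO 1.

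Several other short members were also higher in cKO within both numbers. Rps29, a small zinc-binding 40S protein, had 523 and 947 FPKM in cKO, against 365 and 703 FPKM in control. Rpl38, a 60S protein whose mutation in mice causes tail and skeletal defects, had 341 and 577 FPKM in cKO, against 257 and 428 FPKM in control. Rps28, a 40S protein near the mRNA exit, had 89.2 and 158 FPKM in cKO, against 66.8 and 119 FPKM in control. In all 3 the groups overlapped, with control 2 above cKO 1. Their log2 differences were 0.47, 0.42 and 0.41 (limma adjusted p = 0.959 for each). Rpl36 and Rps21, also under 500 nt, had differences of 0.34 and 0.39. Rpl37, with a main transcript of 835 nt, had a difference of 0.36, so such a value was not particular to short members.

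The size of the difference followed the length of the main transcript, the annotated transcript with the highest mean value, a property examined after the values had been seen. Main transcripts of the tested members ran from 345 to 2606 nt, with a median of 761 nt. The 14 members under 500 nt had a median of 0.36 on the log2 scale, with 0.34 and 0.35 in numbers 1 and 2, and 14 of 14 were higher in cKO within both numbers. The 22 members of 500 to under 700 nt had a median of 0.14, the 26 of 700 to under 1000 nt 0.09, the 17 of 1000 to under 2000 nt 0.09, and the 2 of 2000 nt and over -0.09. Across the 81 members the log2 difference correlated with log2 length at r = -0.36 (Spearman's rho = -0.42). Members share libraries and depth, so these correlations are descriptions. Without the 14 shortest members r was -0.19 (rho = -0.23, n = 67), so the trend rests largely on them.

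Other protein-coding genes showed a length trend of their own. The 124 other protein-coding genes under 500 nt had a median log2 difference of 0.21, and 48.4% were higher in cKO within both numbers. The medians of the others were 0.13 at 500 to under 700 nt (n = 260), 0.15 at 700 to under 1000 nt (n = 582), 0.05 at 1000 to under 2000 nt (n = 2800), -0.02 at 2000 to under 4000 nt (n = 4913) and -0.10 at 4000 nt and over (n = 3459). Across all 12138 of them r was -0.24. From 500 nt upward the members' medians were therefore close to those of other genes of like length, and under 500 nt they were higher. Members were more often higher in cKO within both numbers, with 15 of 22 against 130 of 260 others at 500 to under 700 nt. The shares were 65.4% against 50.7% at 700 to under 1000 nt and 58.8% against 41.96% at 1000 to under 2000 nt. At 2000 to under 4000 nt 0 of 2 members were, against 33.8% of others. The 31.8% of all genes given above includes longer genes, with 22.1% at 4000 nt and over. Replicate number moved with length too, mainly through the shortest class. There members were higher in number 2 by 0.77 in cKO and 0.73 in control, against 0.57 and 0.62 at 1000 to under 2000 nt. For the 67 members of 500 nt and over, this difference correlated with log2 length at r = -0.004 in cKO and -0.077 in control. The part of transcript length in the genotype differences was not tested.

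Paralogue pairs let the level of a copy be set against its partner within the same libraries. Rpl36al is a copy of Rpl36a, a 60S protein at the site where tRNAs leave the ribosome. Rpl36al had 547 and 618 FPKM in cKO, against 305 and 406 FPKM in control. Both cKO libraries were above both control libraries with a wide gap, and the log2 difference was 0.72 ± 0.33 (SE, limma adjusted p = 0.959; 0.84 within number 1, 0.61 within number 2). Rpl36a had 429 and 623 FPKM in cKO and 373 and 582 FPKM in control, a difference of 0.15 ± 0.40, with overlapping groups. Rpl36al was thus above Rpl36a in cKO 1 and close to it in cKO 2, and below it in both control libraries. The difference between the paralogues' changes was not tested.

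Rps27l and Rps27, 40S proteins with a zinc finger, form another pair. Their coding sequences are shown because the copies have the same length of 255 nt, with the 61 positions at which they differ in capitals (76.1% identity, longest shared run 11 nt; Rps27 on chromosome 3, Rps27l on chromosome 9, GENCODE M21, GRCm38):

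Rps27: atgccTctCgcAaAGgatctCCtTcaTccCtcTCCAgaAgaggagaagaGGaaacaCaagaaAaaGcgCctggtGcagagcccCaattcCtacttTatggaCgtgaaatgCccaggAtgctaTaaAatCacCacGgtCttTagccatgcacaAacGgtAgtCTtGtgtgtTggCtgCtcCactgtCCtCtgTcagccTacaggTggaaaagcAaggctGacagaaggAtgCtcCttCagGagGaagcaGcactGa
Rps27l: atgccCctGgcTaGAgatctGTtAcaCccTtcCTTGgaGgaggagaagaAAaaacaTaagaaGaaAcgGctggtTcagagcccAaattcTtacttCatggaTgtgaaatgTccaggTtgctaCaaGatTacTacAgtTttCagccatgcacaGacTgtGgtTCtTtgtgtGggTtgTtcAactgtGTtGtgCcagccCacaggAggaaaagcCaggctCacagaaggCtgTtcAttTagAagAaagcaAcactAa

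Rps27l, which is known as a p53 target, had 191 and 351 FPKM in cKO, against 147 and 234 FPKM in control. Rps27 had 1317 and 2293 FPKM in cKO, against 1096 and 1827 FPKM in control. Both were higher in cKO within both numbers, with overlapping groups, and the log2 differences were 0.48 ± 0.41 for Rps27l and 0.30 ± 0.56 for Rps27 (SE, limma adjusted p = 0.959 and 0.966). For Rps27l the difference was 0.042 without cKO 2 and 0.917 without cKO 1. The minor copy stayed several times below the major one in every library.

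Rps4l, annotated as a transcribed processed pseudogene on chromosome 6, showed the same direction as Rpl36al. It had 80.4 and 130 FPKM in cKO, against 39.9 and 76.7 FPKM in control. Both cKO libraries were above both control libraries, narrowly so for cKO 1, and the log2 difference was 0.88 ± 0.40 (SE, limma adjusted p = 0.959; 0.99 within number 1, 0.76 within number 2). It ran from 0.41 without control 1 to 1.34 without control 2. Rps4x, the X-linked functional gene, had 1215 and 1662 FPKM in cKO and 1145 and 1581 FPKM in control, a difference of 0.08. Of 783 aligned coding bases of Rps4x, 626 are identical in Rps4l (79.9%), and how reads were divided between them was not tested.

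The last 2 pairs were close between genotypes or uneven between libraries. Rpl22l1, which can take the place of Rpl22, had 149 and 144 FPKM in cKO and 143 and 189 FPKM in control. Rpl22 had 384 and 663 FPKM in cKO and 332 and 636 FPKM in control. Summed, Rpl22l1 was high in control 2 alone, but its 2 main protein-coding transcripts went in opposite directions between genotypes. The transcript of 552 nt had 67.3 and 72.8 FPKM in cKO, against 31.6 and 51.7 FPKM in control, and that of 525 nt had 65.8 and 58.3 FPKM in cKO, against 98.4 and 123 FPKM in control. The groups overlapped in neither row, which was noticed after the values were seen and was not tested. Rpl7l1 had 30 and 44.4 FPKM in cKO and 33.4 and 41.1 FPKM in control, and Rpl7 had 856 and 1175 FPKM in cKO and 879 and 1295 FPKM in control. Rpl39, the only broadly expressed member of its pair, had 815 and 1388 FPKM in cKO and 596 and 1036 FPKM in control, a difference of 0.44 ± 0.50 (SE, limma adjusted p = 0.959), with 0.45 and 0.42 within the numbers, and it was 0.039 without control 1 and 0.836 without control 2.

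**Figure D4:**
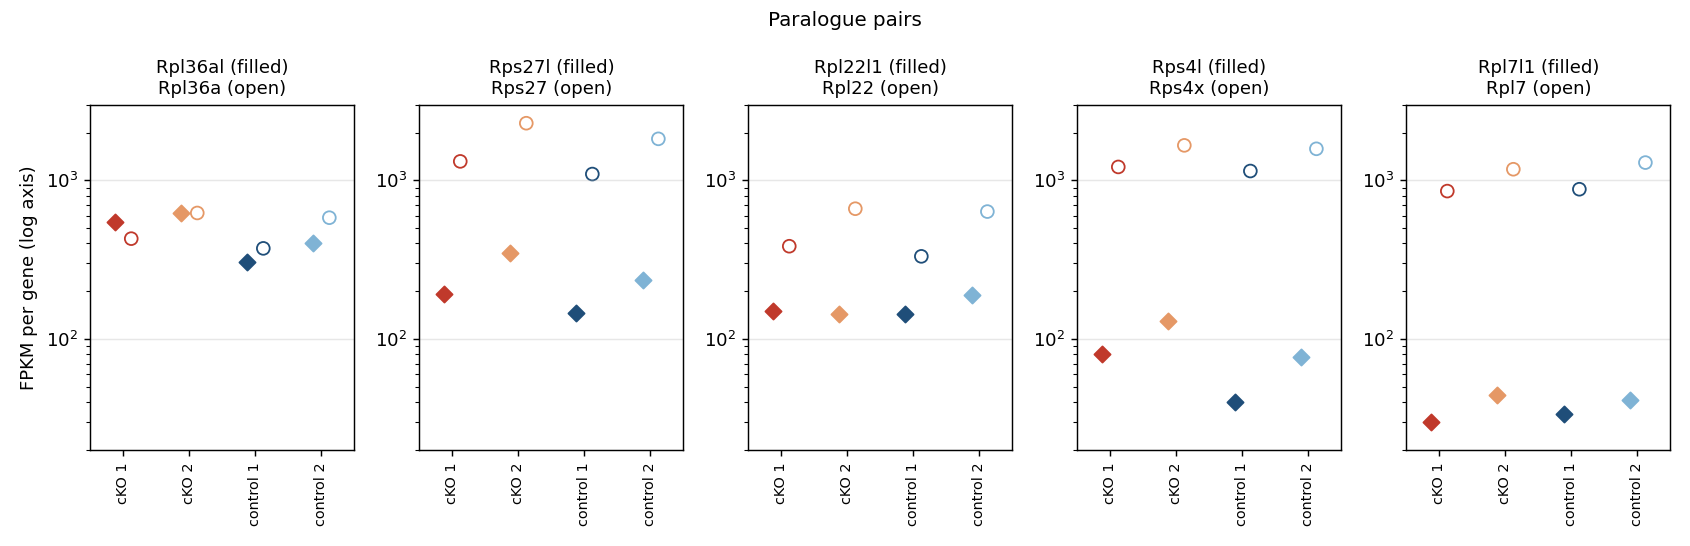
FPKM per gene (log axis) of 5 paralogue pairs in each library, the minor copy as filled diamonds and the major copy as open circles. Rpl36al and Rps4l are higher in both cKO libraries than in both control libraries, while Rpl36a and Rps4x differ mainly by replicate number.

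A few members differed because of 1 library. Rpl7a, a 60S protein, had 115 and 285 FPKM in cKO, against 340 and 292 FPKM in control. Both cKO values were below both control values, but cKO 2 was only just below control 2, and the log2 difference of -0.80 ± 0.47 (SE, limma adjusted p = 0.959) was -1.56 within number 1 and -0.04 within number 2. The pseudogene symbol Rpl7a-ps11 was low in the same library, with 129 and 605 FPKM in cKO, against 400 and 658 FPKM in control. Without cKO 1 the difference of Rpl7a was -0.15. Rpl17, a 60S protein at the exit tunnel, was high in cKO 2 alone, with 50.4 and 253 FPKM in cKO, against 56.1 and 58.8 FPKM in control. The log2 difference of Rpl17 was 2.12 without cKO 1, and symbols of its pseudogenes held 67.2% of the combined FPKM of gene and pseudogenes. These pseudogene symbols summed to 152 and 220 FPKM in cKO, against 186 and 300 FPKM in control. Gene and copies summed had 202 and 473 FPKM in cKO, against 242 and 358 FPKM in control. Their log2 difference was -0.26 within number 1 and 0.40 within number 2.

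Processed pseudogenes, intronless copies of ribosomal protein mRNAs, are many in the mouse genome, and counts can be split between a gene and its copies. The table held 257 pseudogene symbols of members, of which 117 were listed at 0 in all libraries and 62 passed the filter. Together they held 0.629% and 0.824% of summed FPKM in cKO and 0.641% and 0.803% in control. This small share did not differ beyond the spread between libraries. The median log2 difference of the 62 was 0.11, with 0.19 in number 1 and 0.01 in number 2. Of them 35.5% were higher and 14.5% lower in cKO within both numbers, beside 31.8% and 37.6% of all genes. Rps12 shows the split, since 82.7% of the combined FPKM stood under pseudogene symbols, mainly Rps12-ps3. Rps12 had 186 and 407 FPKM in cKO and 158 and 252 FPKM in control. Rps12-ps3 had 1037 and 1529 FPKM in cKO and 864 and 1342 FPKM in control. Gene and copies summed were higher in cKO by 0.25 within number 1 and 0.28 within number 2 on the log2 scale, against 0.23 and 0.69 for Rps12 alone.

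Transcript rows gave a similar picture of uneven assignment. The members had 390 rows, 186 of protein-coding transcripts, 124 of retained introns, 49 of processed transcripts, 11 of transcripts subject to nonsense-mediated decay, 1 of a processed pseudogene and 19 without annotation in the release used. Rows listed at 0 numbered 56 and 63 in cKO and 62 and 54 in control, and 35 rows, 18 of them protein coding, were listed at 0 in all 4 libraries. Of the FPKM in the members' annotated rows, types other than protein coding held 2.75% and 2.06% in cKO, against 2.92% and 2.30% in control. The 19 rows without annotation were left out of this share. The share was lower in cKO within both numbers, by 0.17 and 0.24 percentage points, with overlapping groups (exact permutation test, two-sided, p = 0.667), and it was higher in cKO without cKO 2 (by 0.14 points) or without control 1 (by 0.11 points). Over the annotated rows of all genes, retained introns held 4.03% and 2.29% of FPKM in cKO and 4.71% and 2.85% in control.

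In 2 skin-related members a row annotated as a retained intron held much of the value, though not in cKO 1 for Rpl21. Rpl21, linked in humans to hereditary hair loss, had 165 and 142 FPKM in cKO and 109 and 168 FPKM in control. Its protein-coding transcript of 899 nt had 114 and 0.43 FPKM in cKO and 19.2 and 0.90 FPKM in control, while a retained-intron transcript of 632 nt had 21.7 and 132 FPKM in cKO and 70.4 and 153 FPKM in control. The coding row was thus high in cKO 1 alone and near 0 in both libraries numbered 2. Rps20, in which mouse mutations darken the skin, had 274 and 395 FPKM in cKO and 239 and 372 FPKM in control, most of it in a row annotated as a retained intron. That row had 194 and 293 FPKM in cKO and 170 and 274 FPKM in control. The protein-coding row of Rps20 went the same way, with 78.2 and 101 FPKM in cKO and 66.7 and 97.5 FPKM in control. Rps19, another dark-skin gene, had 1072 and 1492 FPKM in cKO and 964 and 1431 FPKM in control, a log2 difference of 0.11 ± 0.48 (SE, limma adjusted p = 0.986).

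The members tied to signalling were close to control. Rpl5 and Rpl11 bind and hold back Mdm2, the inhibitor of p53, when ribosome assembly is disturbed. Rpl5 had 513 and 578 FPKM in cKO and 530 and 695 FPKM in control, lower in cKO within both numbers (log2 difference -0.16 ± 0.35, SE). Rpl11 had 372 and 605 FPKM in cKO and 347 and 544 FPKM in control, higher within both (0.13 ± 0.42). Rps6, whose phosphorylation by S6 kinase is a common readout of mTORC1, had 961 and 1361 FPKM in cKO and 968 and 1440 FPKM in control (-0.05 ± 0.47). All 3 had overlapping groups. Of Mdm2, Mdm4, Trp53 and Cdkn1a, 0 passed the threshold. Cdkn1a, a p53 target, had 107 and 129 FPKM in cKO, against 75.7 and 86.2 FPKM in control (log2 difference 0.54 ± 0.24, limma adjusted p = 0.959), and Mdm4 had 52.8 and 21.1 FPKM in cKO, against 73.1 and 36.1 FPKM in control.

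The promoters of the members share sequence features that the choice by symbol did not use. RefSeq promoters (GRCm38.p6) were found for 63 members, some with several start sites. In the window from 30 bases before to 50 bases after the start site on the coding strand, a C followed by at least 7 pyrimidines was found in 70.7% of the 75 promoters of these members, against 23.1% of all 32851 promoters. The 8 letters CTCTTTCC, a C with a pyrimidine run, were found in 10.7% of the members' promoters (7 members), against 0.356% of all promoters, and the shorter CTTTCC, which lies within them, in 28.0% (19 members), against 3.73%. CGGAAG, the core of ETS family binding sites, was found on either strand of the 300 bases in 60% of the members' promoters (42 members), against 16.9% of all promoters. A match is a description of the letters and not a measured start or bound site. Counted from 1 at the annotated start site, the match began at base 1 in Rpl28 and 2 in Rpl18, and at bases 24 to 34 in Rpl19, Rpl26, Rpl35a, Rpl36a and Rpl6, where it is not at the annotated start of the mRNA. The 7 members with these 8 letters are shown to make them visible, each as 30 bases with the match in capitals (RefSeq, GRCm38.p6):

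Rpl18, chr7:45718061-45718090, + strand: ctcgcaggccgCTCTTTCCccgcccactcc
Rpl19, chr11:98026944-98026973, + strand: gcggcccacaagCTCTTTCCtttcgctgct
Rpl26, chr11:68901578-68901607, + strand: cgcgtgtagttCTCTTTCCttttgcggcca
Rpl28, chr7:4792954-4792983, + strand: ctctcgtgtctCTCTTTCCgtctccggccg
Rpl35a, chr16:33056471-33056500, + strand: ggcttgccttcCTCTTTCCgccatcttggc
Rpl36a, chrX:134585674-134585703, + strand: gctctagcctctCTCTTTCCgagctgctag
Rpl6, chr5:121204521-121204550, + strand: cgctgccttagttCTCTTTCCcgtcttgca

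The members with this motif varied in the comparison as the rest did. Their log2 differences were -0.04 for Rpl18, 0.20 for Rpl19, 0.09 for Rpl26, 0.05 for Rpl28, 0.19 for Rpl35a, 0.15 for Rpl36a and 0.09 for Rpl6, around the median of 0.12 of the 81 members. Rpl19, a 60S protein often used as a reference gene, had 1003 and 1613 FPKM in cKO and 904 and 1355 FPKM in control.

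Genes that act with the ribosomal proteins were examined as lists. Some ribosome components lie outside the symbol rule, and of these Rack1 was not matched. Fau, the source of a 40S protein, had 550 and 809 FPKM in cKO and 548 and 849 FPKM in control. Rps3a1, a 40S protein, had 1008 and 1296 FPKM in cKO and 933 and 1429 FPKM in control. Both overlapped between genotypes, with log2 differences of -0.03 and -0.01. Of 12 other RNAs known to start with a TOP motif, the noncoding Gas5 included, 1 (8.33%) was higher and 4 (33.3%) were lower in cKO within both numbers, beside 31.8% and 37.6% of all genes. The 12 leave out elongation factors, which are given below, and so do not stand for all TOP RNAs. The median of the 12 was -0.11, with 0.02 in number 1 and -0.24 in number 2, so its sign came from number 2. Vim, the intermediate filament protein vimentin, had 176 and 191 FPKM in cKO, against 284 and 281 FPKM in control (log2 difference -0.62 ± 0.26). Cct4, a subunit of a cytosolic chaperonin, had 67.6 and 71.4 FPKM in cKO, against 79.8 and 105 FPKM in control.

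Translation factors, which carry the ribosome through initiation and elongation, were compared by step. Of 9 tested elongation factors and related genes, 7 were higher within both numbers and the median was 0.30 (0.25 and 0.32 within the numbers), beside 31.8% of all genes and a median of -0.03. Eef1e1, a scaffold of the aminoacyl-tRNA synthetase complex, had 32.0 and 32.7 FPKM in cKO, against 24.9 and 26.0 FPKM in control, and Eif5a2 had 2.26 and 1.25 FPKM in cKO, against 3.34 and 2.49 FPKM in control. Of 29 initiation factors, 12 (41.4%) were higher and 8 (27.6%) lower within both numbers, beside 31.8% and 37.6% of all genes. Eif3e, a subunit of the initiation factor eIF3, had 93.6 and 94.8 FPKM in cKO, against 120 and 156 FPKM in control (log2 difference -0.53 ± 0.25). In these lists 0 members passed the threshold.

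Among ribosome biogenesis genes, the factors that assemble ribosomal proteins and RNA into subunits, non-overlapping groups lay mostly on the higher side. Of 55 tested, both cKO libraries were above both control libraries in 17 (30.9%, against 16.2% of all genes) and below in 3 (5.45%, against 16.6%), and the median log2 difference was 0.12. Rrs1, needed for assembly of the 60S subunit, had 37.2 and 52.6 FPKM in cKO, against 18.4 and 22.2 FPKM in control. Bysl, needed for the 40S subunit, had 16.8 and 23.2 FPKM in cKO, against 8.96 and 10.8 FPKM in control. In both the groups were well apart, with log2 differences of 1.10 ± 0.25 and 0.94 ± 0.24 (SE, limma adjusted p = 0.959 for both). RNA polymerase I, which transcribes ribosomal RNA, had 4 of 14 genes with both cKO libraries above both control libraries (28.6%, against 16.2% of all genes). It had 1 gene below (7.14%, against 16.6%), and the median was 0.18. Taf1c, a subunit of its promoter factor, had 10.9 and 12.9 FPKM in cKO, against 7.05 and 8.18 FPKM in control, and Polr1b, a core subunit, had 27.2 and 35.0 FPKM in cKO, against 19.0 and 23.6 FPKM in control.

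By their median, the regulators of TOP mRNAs were closer to control. Their 11 genes had a median of 0.07. Within both numbers 5 (45.5%) were higher and 1 (9.09%) was lower, beside 31.8% and 37.6% of all genes. Larp1 had 41.3 and 41.04 FPKM in cKO, against 29.5 and 38.1 FPKM in control. Eif4ebp1, an inhibitor of cap-dependent initiation that mTORC1 phosphorylates, had 26.2 and 40.9 FPKM in cKO, against 20.01 and 30.01 FPKM in control. Larp1 was higher in both cKO libraries than in both control libraries, and Eif4ebp1 was higher within both numbers with overlapping groups.

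Cell-type markers moved beside these results, and in bulk RNA fewer cells of a type and less RNA per cell cannot be told apart. All 7 basal keratinocyte markers were lower in cKO within both numbers, with summed levels of 2453 and 3828 FPKM in cKO and 3836 and 4950 FPKM in control and a median log2 difference of -0.44. The summed suprabasal markers were 13675 and 6991 FPKM in cKO and 16652 and 6092 FPKM in control, with Krt1 listed at 0. Most of this sum was Krt10, with 12142 and 6217 FPKM in cKO and 15342 and 5382 FPKM in control. Of the 5 tested suprabasal markers, 2 were higher and 0 lower in cKO within both numbers, with a median log2 difference of 0.10. All 7 leukocyte markers were lower within both numbers, with sums of 160 and 243 FPKM in cKO and 284 and 343 FPKM in control. Melanocyte sums were 397 and 417 FPKM in cKO and 516 and 445 FPKM in control, and fibroblast sums were 84.6 and 92.0 FPKM in cKO and 116 and 114 FPKM in control. Of the 6 fibroblast markers, 3 were lower and 1 was higher in cKO within both numbers. Their median log2 difference was -0.13, with -0.34 in number 1 and 0.01 in number 2. Dcn, a large part of the fibroblast sum, had 34.0 and 40.3 FPKM in cKO, against 55.7 and 68.2 FPKM in control. Erythroid sums went with neither genotype nor number, at 1164 and 381 FPKM in cKO and 310 and 799 FPKM in control, while endothelial and muscle sums stayed at or under 2.28 FPKM in every library. The part of these cell types in the values of the ribosomal protein genes was not tested.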

How the data were processed

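RNA of 2 cKO and 2 control libraries was made into libraries with an insert of about 300 bp, per the labels' protocols. The submitters' processing notes name fastp, HISAT2, HTSeq and the build GRCm38, without roles or versions. The authors deposited a table of 110295 transcripts whose header names no unit. From the values themselves, the deposited unit was read as FPKM, because value times length summed to nearly the same total in every library (1015550 to 1021998 after division by 1000); FPKM and RPKM cannot be told apart. How transcript values and the length correction were made, on which values of transcripts near the insert length depend, is not given in the sources used here. Strand use is also not given, so antisense reads cannot be told apart. Control columns are headed WT and were matched by group and number. Low values of single-transcript genes of 300 to 1000 nt lay within 0.2 reads of whole reads in 94.4% to 95.7% of cases.

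FPKM were summed per symbol, 162 symbols turned into dates being restored by transcript ID. GENCODE M21 (GRCm38) matched 98.1% of transcripts. Genes with at least 1 FPKM in 2 libraries (13817) were fitted on log2(FPKM + 1), which understates changes of low genes, with limma (moderated test with trend, genotype only, 2 residual degrees of freedom, Benjamini-Hochberg at 0.05). The test was checked on simulated data. Named members were the 10 most abundant, those whose groups did not overlap, paralogue pairs, members at 0 and 6 with known roles; lists gave the 2 members with the smallest p. A gene that the rule names and 1 sequence are not reported here. Further genes named were chosen after their values were seen. The members and lists were chosen with earlier results of these data known. Alternatives covered the pseudocount, filters, scaling, protein-coding transcripts alone, the replicate number as a block and leaving out each library, where the lone library is assumed to have the spread of the other group. Software was matplotlib 3.10.9, scipy 1.17.1, limma 3.58.1 in R 4.3.3, and pandas 2.3.3 with numpy 2.4.6 in Python 3.11.15.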

Additional observations from a re-analysis of the deposited data

How the results depend on the processing

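With 2 libraries a group, depth and their number limit precision. The number of ribosomal protein genes past the threshold was 0, and it stayed 0 with a pseudocount of 0.1, no filter, a filter of 5 FPKM, equal column sums, median-ratio scaling and protein-coding transcripts alone, as did the number of all genes. With the replicate block 900 genes passed (626 or 4.53% higher and 274 or 1.98% lower in cKO). Among them were 4 ribosomal protein genes, all higher, or 4.94% of the tested members, close to the 4.53% of all genes. These were Rpl36al, Rpl41, Rps27l and Rps4l, at log2 differences of 0.72, 0.85, 0.48 and 0.88 (limma adjusted p = 0.0160, 0.0111, 0.0452 and 0.00648). The labels do not state that numbers pair libraries, the check has only 2 pairs (r = 0.722 between same-numbered deviations over 13817 genes), and the cause was not tested. Leaving out 1 library gave 9 to 71 genes and 0 to 1 members past the threshold. The members' median log2 difference ran from 0.06 to 0.16 over the other alternatives, without Rpl17 and Rpl7a included (0.12, added after the data were seen), and from -0.20 to 0.46 without 1 library. The difference in share of summed FPKM ran from -0.74 to 2.06 points, and that in the share not protein coding from -0.54 to 0.14 points, without 1 library. Equal column sums turned Rpl3 (-0.047), and median-ratio scaling turned Rpl7l1 (0.015) and Rps18 (0.013). Of 29 named members 4, 15, 16 and 6 changed sign without cKO 1, cKO 2, control 1 and control 2. Among those that changed sign, log2 differences without 1 library ran from -0.17 to 0.34 for Rpl10, -0.22 to 0.48 for Rpl11, -0.13 to 0.49 for Rpl21, -0.33 to 0.60 for Rpl22, -0.36 to 0.038 for Rpl22l1, -0.22 to 0.41 for Rpl26, -0.22 to 0.24 for Rpl3, -0.19 to 0.53 for Rpl32, -0.17 to 0.47 for Rpl36a, -0.35 to 0.038 for Rpl5, -0.37 to 0.19 for Rpl7, -0.30 to 0.25 for Rpl7l1, -0.11 to 0.50 for Rplp0, -0.02 to 0.69 for Rplp1, -0.29 to 0.46 for Rps14, -0.31 to 0.26 for Rps18, -0.18 to 0.39 for Rps19, -0.11 to 0.58 for Rps2, -0.18 to 0.46 for Rps20, -0.10 to 0.70 for Rps27, -0.15 to 0.31 for Rps4x and -0.33 to 0.24 for Rps6. Those that kept their sign ran from 0.52 to 0.93 for Rpl36al, 0.05 to 0.55 for Rpl37a, 0.04 to 0.84 for Rpl39, 0.43 to 1.28 for Rpl41, -1.45 to -0.15 for Rpl7a, 0.04 to 0.92 for Rps27l and 0.41 to 1.34 for Rps4l.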
